A study of Mus musculus with 2 samples.

Results

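Calcium pumps of the sarcoplasmic reticulum, their small inhibitors and the proteins that bind calcium were followed in the gastrocnemius, the large calf muscle, of 2 mice. The 10 genes were taken by symbol from a fixed list, out of 55536 genes in the deposited gene tables, and all 10 were found. They are the pumps Atp2a1, Atp2a2 and Atp2a3, the regulators Sln and Pln, the store proteins Casq1, Casq2, Hrc and Srl, and the cytosolic buffer Pvalb. Both mice were female B6CASTF1/J animals, the first-generation cross of a B6 and a CAST parent, 2 months old and untreated as far as the labels say. Each gave 1 library of total RNA after reduction of ribosomal RNA, and the libraries are called animal 2 and animal 1 after their replicate numbers. The labels attach the same donor record to both, so a spread between them could lie within 1 mouse and be technical. The study had a single group, so no conditions could be set against each other and no p-value is given.

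In a muscle fibre, calcium released from the sarcoplasmic reticulum starts contraction, and SERCA pumps in the membrane of that store return it at the cost of ATP. Sarcolipin and phospholamban are short membrane peptides that slow the pumps, while calsequestrin, the histidine-rich calcium-binding protein and sarcalumenin lie inside the store. Fast fibres use mainly the pump encoded by Atp2a1 and the calsequestrin encoded by Casq1, and they hold parvalbumin, which takes up calcium in the cytosol and so speeds relaxation. Slow fibres, like the heart, use the pump encoded by Atp2a2, and they also contain Casq2.

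The libraries held 47771308 expected counts on genes in animal 2 and 45014831 in animal 1. The fast-fibre identity of the muscle was clear: 9 of 9 fast markers were at 1 TPM (a level per transcript length, scaled to the library) or more, with summed levels of 46030 TPM in animal 2 against 47980 TPM in animal 1. The 7 slow-fibre markers (Myh7, Myl2, Myl3, Tnni1, Tnnt1, Tnnc1 and Tpm3) summed to 3635 TPM in animal 2 against 861 TPM in animal 1. Adipocyte markers summed to 35.1 TPM in animal 2 against 579.5 TPM in animal 1, and Schwann cell markers to 32.9 TPM in animal 2 against 243.8 TPM in animal 1. These lists stand beside the results they move with. In bulk tissue, fewer cells of a type and less RNA per cell cannot be told apart.

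Levels of the 10 genes ran from 0.17 TPM to 8749 TPM. Atp2a1, the fast pump, was the highest of them, at 8232 ± 730 TPM (SD, n = 2), and stood at rank 6 of 22015 nuclear protein-coding genes in animal 2 and at rank 5 in animal 1. Pvalb followed with 3658 ± 533 TPM, Casq1 with 1048 ± 51.96 TPM, Srl with 395 ± 38.8 TPM and Hrc with 343 ± 31.1 TPM. Atp2a2 averaged 206 ± 197 TPM, Casq2 28.5 ± 13.6 TPM, Pln 6.83 ± 3.47 TPM and Atp2a3 3.30 ± 1.53 TPM. Sln was last, at 0.18 ± 0.0071 TPM. Srl and Hrc, Hrc and Atp2a2, Atp2a2 and Casq2, and Pln and Atp2a3 were neighbours in this order whose mean ± SD ranges overlapped. Within each library, however, Srl, Hrc, Atp2a2 and Casq2 kept this order. Atp2a2 stood at 345 TPM against 38.2 TPM for Casq2 in animal 2, and at 67.3 TPM against 18.9 TPM in animal 1. Pln stood above Atp2a3 in animal 2, at 9.28 against 2.21 TPM, but level with it in animal 1, at 4.37 against 4.38 TPM. Of all TPM on protein-coding genes of the nucleus, the 10 genes took 3.52% in animal 2 and 3.86% in animal 1. Most of it came from Atp2a1 and Pvalb, and the other 8 took 0.573% in animal 2 and 0.505% in animal 1.

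**Figure D1:**
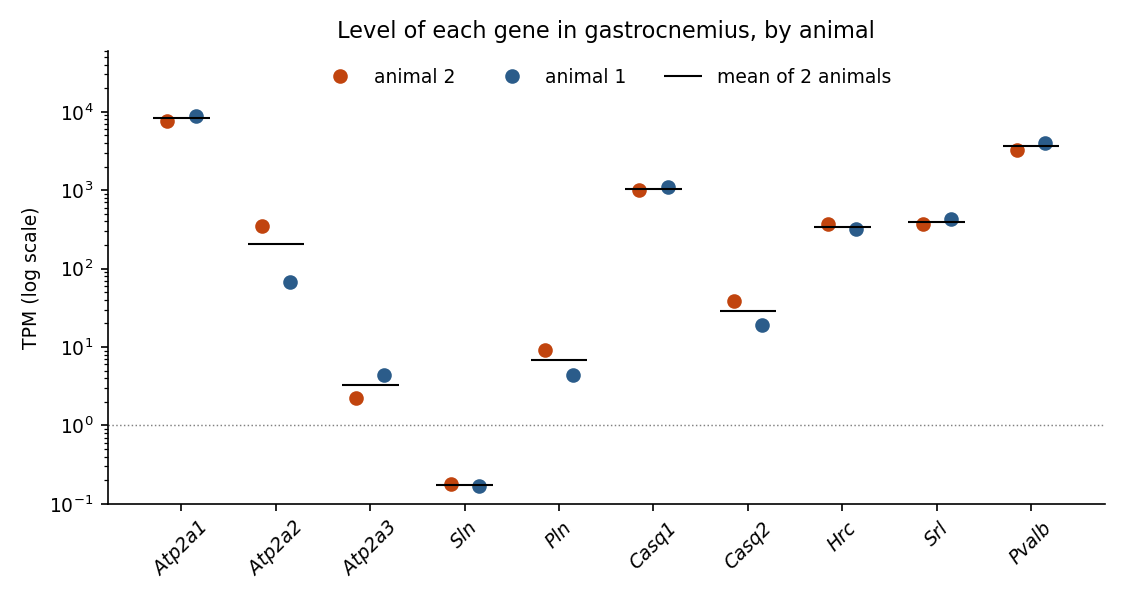
Level of each of the 10 genes (x axis) in TPM on a log axis, with 1 point per animal (animal 2 left, animal 1 right) and a bar at the mean. The points of Atp2a1, Pvalb and Casq1 nearly coincide at the top, those of Atp2a2 stand apart at 345 and 67.3 TPM, and Sln lies below the dotted line at 1 TPM in both animals.

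Among the pumps, Atp2a1 (chromosome 7, 126445858 to 126463108, minus strand, mm10) had 7716 TPM in animal 2 against 8749 TPM in animal 1. It made up 95.7% of the summed TPM of the 3 pumps in animal 2 and 99.2% in animal 1. Atp2a2 (chromosome 5, 122453513 to 122502225, minus strand), the pump of slow fibres and heart, had 345 TPM in animal 2 against 67.3 TPM in animal 1. Its share of the pump pool was therefore 4.28% in animal 2 and 0.763% in animal 1. The TPM ratio of Atp2a1 to Atp2a2 was 22.4 in animal 2 and 130 in animal 1, so the fast pump led in both animals by a margin that differed widely between them. In the second transcript table this ratio was 19.7 in animal 2 and 84.2 in animal 1, and the share of Atp2a2 was 4.84% in animal 2 and 1.17% in animal 1. Atp2a3 (chromosome 11, 72961169 to 72993044, plus strand), the pump known from blood cells, endothelium and epithelia, had 2.21 TPM in animal 2 against 4.38 TPM in animal 1. It contributed 0.0274% of the pool in animal 2 and 0.0497% in animal 1.

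The coding sequences of the 3 pump genes are related but far from identical. Aligned in their coding sequences (GENCODE M21), the leading transcripts of Atp2a1 and Atp2a2 were 75.0% identical over 2982 bases. Atp2a3 was 72.3% identical to Atp2a1 and 70.8% to Atp2a2. The gene table's own uncertainty on the Atp2a2 count was 2.39 reads of 54886 in animal 2 and 1.79 reads of 10219 in animal 1, as a posterior SD. For the other 9 genes it was at most 0.03 reads, so the deposited model placed nearly all reads of these genes on a single gene.

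**Figure D2:**
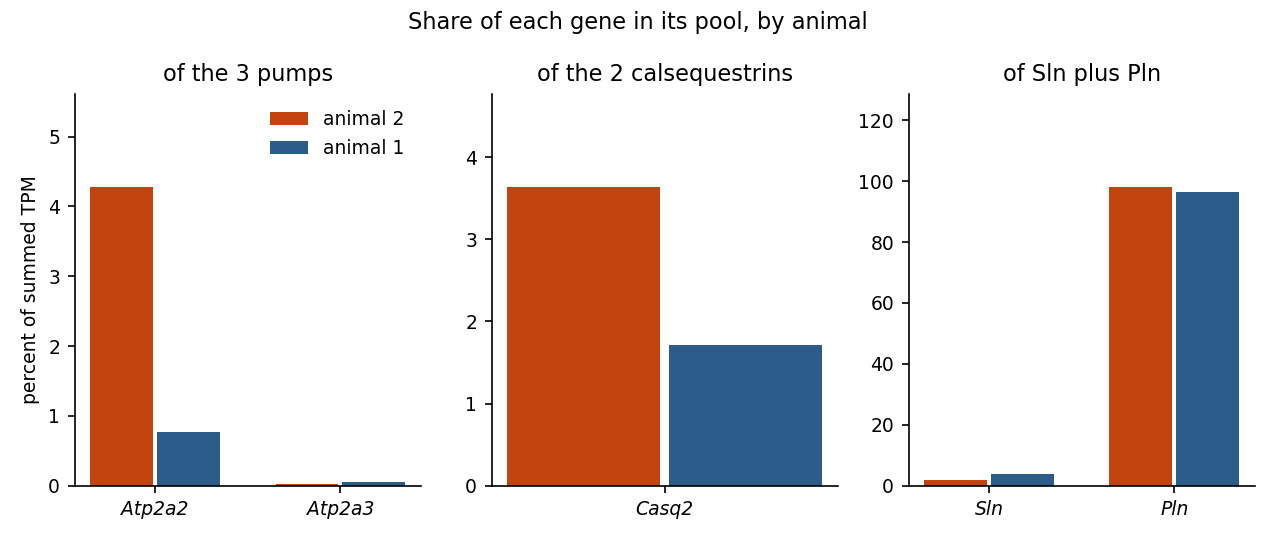
Percent of summed TPM (y axis) held by Atp2a2 and Atp2a3 among the 3 pumps, by Casq2 among the 2 calsequestrins, and by Sln and Pln of their sum, with 1 bar per animal (animal 2 left, animal 1 right). Atp2a2 holds 4.28% in animal 2 and 0.763% in animal 1, and Casq2 3.64% in animal 2 and 1.71% in animal 1.

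Atp2a2 is spliced at its end into a shorter pump, SERCA2a, found in slow and cardiac muscle, and a longer one, SERCA2b, found in most cells. In the annotation the transcripts encode 998 and 1044 codons, and by these lengths they are called SERCA2a and SERCA2b here. The coding sequences are the same over the first 2983 bases and then part, leaving 14 bases of its own to SERCA2a and 152 to SERCA2b, stop codon included. The ends are shown because the isoform shares below rest in part on them and on the untranslated sequence after them. The annotated transcripts also differ where they begin, at 122501895 for SERCA2a and at 122502225 for SERCA2b, so the shares can rest on that sequence too. Capitals mark the bases after the sequences part, and the lower-case lead-in of 30 bases is shared.
SERCA2a end: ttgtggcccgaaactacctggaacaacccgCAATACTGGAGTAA
SERCA2b end: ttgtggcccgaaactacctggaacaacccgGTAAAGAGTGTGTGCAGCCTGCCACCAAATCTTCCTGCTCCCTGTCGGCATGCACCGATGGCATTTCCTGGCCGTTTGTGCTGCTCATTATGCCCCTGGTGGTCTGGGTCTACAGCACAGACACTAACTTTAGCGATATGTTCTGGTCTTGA

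The SERCA2a transcript led in both animals and in both transcript tables. It held 74.8% of the gene's TPM in animal 2 and 68.8% in animal 1, and the SERCA2b transcript held 22.2% in animal 2 and 27.4% in animal 1. In TPM, SERCA2a stood at 258 in animal 2 and 46.3 in animal 1, and SERCA2b at 76.7 in animal 2 and 18.4 in animal 1. Both isoforms were thus higher in animal 2, with log2 ratios of expected counts (animal 2 over animal 1) of 2.58 for SERCA2a and 2.16 for SERCA2b. The second transcript table gave SERCA2a a larger share, 81.1% in animal 2 and 77.6% in animal 1, and kept the order of the animals. Atp2a1 was nearly a single transcript: that of 994 codons had 7694 TPM in animal 2 against 8718 TPM in animal 1, and a short incomplete model had 22.3 TPM in animal 2 against 30.9 TPM in animal 1. Atp2a3 was led by its transcript of 1038 codons, with 65.6% of the gene's TPM in animal 2 and 71.5% in animal 1. The gene had 386 reads in animal 2 and 653 in animal 1, and the posterior SD of that transcript was 59.8 reads in animal 2 and 77.7 reads in animal 1, so its transcript shares are loose.

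The 2 inhibitory peptides were scarce. Sln (chromosome 9, 53850164 to 53854560, plus strand), sarcolipin, had 9 reads in animal 2 and 8 in animal 1, with exact Poisson 95% intervals of 4.12 to 17.1 reads in animal 2 and 3.45 to 15.8 reads in animal 1. That is 0.18 TPM in animal 2 against 0.17 TPM in animal 1, where 3 reads would equal 0.0615 TPM in animal 2 against 0.0654 TPM in animal 1. Pln (chromosome 10, 53337667 to 53345987, plus strand), phospholamban, had 482 reads or 9.28 TPM in animal 2 and 232 reads or 4.37 TPM in animal 1. Pln made up 98.1% of the summed TPM of the pair in animal 2 and 96.3% in animal 1. Set against its pump of slow fibres, Atp2a2 stood 37.2 times above Pln by TPM in animal 2 and 15.4 times in animal 1.

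Of 4 other short peptides of the pump membrane, 3 were far more abundant than sarcolipin in the gene table. Mrln, myoregulin, a peptide inhibitor of the pump in skeletal muscle, had 72.1 TPM in animal 2 against 59.7 TPM in animal 1. 1810037I17Rik, for which RefSeq lists the synonym Aln (another-regulin), had 12.95 TPM in animal 2 against 11.1 TPM in animal 1. Gm34302 is given by RefSeq as a synonym of Strit1, or DWORF, a peptide known to relieve the pump from its inhibitors. It had 377 reads or 65.4 TPM in animal 2 and 37 reads or 6.83 TPM in animal 1. The fourth of these peptides, Smim6, had 0 reads in animal 2 and 2 in animal 1. Smim6 and Sln were the peptides with fewer than 10 reads in each animal, whereas Gm34302 nearly reached the level of Mrln in animal 2 in the gene table. The second transcript table gave Gm34302 0 TPM in both animals, with Mrln at 121 TPM in animal 2 against 97.8 TPM in animal 1.

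The coding sequences of both inhibitors and of Gm34302, the peptide gene furthest apart between the animals, are printed to show how short they are, with start and stop codons in capitals (GENCODE M21, GRCm38). Sln encodes 31 codons, Pln 52 and Gm34302 34. Over 90 aligned bases, the sequences of Sln and Pln were 61.1% identical.
Sln coding sequence: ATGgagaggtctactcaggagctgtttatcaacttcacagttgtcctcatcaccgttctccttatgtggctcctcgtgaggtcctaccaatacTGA
Pln coding sequence: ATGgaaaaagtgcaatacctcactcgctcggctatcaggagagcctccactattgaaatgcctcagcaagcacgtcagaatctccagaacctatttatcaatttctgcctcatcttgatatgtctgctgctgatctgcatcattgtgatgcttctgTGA
Gm34302 coding sequence: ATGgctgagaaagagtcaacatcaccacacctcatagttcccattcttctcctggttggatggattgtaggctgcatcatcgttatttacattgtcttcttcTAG

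Every annotated Pln transcript has the same coding length of 52 codons, so its 6 models differ in untranslated sequence. A 2-exon model of 2334 nt held 37.0% of the gene's TPM in animal 2 and 49.2% in animal 1, and a 3-exon model of 771 nt held 30.6% in animal 2 and 30.7% in animal 1. In the second transcript table the 3-exon model led instead by TPM, with 66.01% in animal 2 and 68.4% in animal 1. By estimated counts in that table the longer 2-exon model still led, with 62.5% in animal 2 and 61.5% in animal 1. The 3-exon model held 31.1% of those counts in animal 2 and 32.8% in animal 1. Pln also lies across from Cep85l, a gene on the opposite strand with 16.4 TPM in animal 2 against 12.6 TPM in animal 1. The spike-in label names a profile for stranded libraries, but no source used here gives the strand setting of the counting, so the low Pln count is uncertain to that extent.

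Inside the store, Casq1 (chromosome 1, 172209894 to 172219868, minus strand), the calsequestrin of fast fibres and the main calcium-binding protein of the store, had 1011 TPM in animal 2 against 1084 TPM in animal 1. Casq2 (chromosome 3, 102086415 to 102146514, plus strand), the calsequestrin of heart and slow fibres, had 38.2 TPM in animal 2 against 18.9 TPM in animal 1. The share of Casq2 in the calsequestrin pool was 3.64% in animal 2 and 1.71% in animal 1, so the fast form dominated the pool as the fast pump dominated the pumps. The coding sequences of the calsequestrins were 68.5% identical over 1173 aligned bases.

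The other store proteins stood between the calsequestrins. Srl (chromosome 16, 4480216 to 4541816, minus strand), sarcalumenin, had 368 TPM in animal 2 against 423 TPM in animal 1. Hrc (chromosome 7, 45335290 to 45338974, plus strand), the histidine-rich calcium-binding protein, had 365 TPM in animal 2 against 321 TPM in animal 1. By TPM, Srl stood at 1.01 times Hrc in animal 2 and 1.32 times in animal 1, a mean log2 ratio of 0.20 ± 0.27 (SD, n = 2) that did not exceed its spread. Casq1 stood at 0.131 of the TPM of Atp2a1 in animal 2 and 0.124 in animal 1, a proportion that moved little.

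The messages of Srl and Casq1 were split between annotated forms. Srl has a long transcript of 910 codons and a short one of 472, and the gene is known to make sarcalumenin and a shorter glycoprotein of the same membrane system. The long transcript held 42.9% of the gene's TPM in animal 2 and 46.03% in animal 1, and the short one held 42.2% in animal 2 and 40.6% in animal 1. In the second transcript table the long one held 49.6% in animal 2 and 49.99% in animal 1, and the short one 38.6% in animal 2 and 36.7% in animal 1. A retained-intron model of 349 nt took 14.6% in animal 2 and 13.0% in animal 1, but 0.379% in animal 2 and 0.266% in animal 1 in the second transcript table. Of expected counts in the first, it held only 0.99% in animal 2 and 0.87% in animal 1. Another short model, of 353 nt, went the other way. It took 0.367% of TPM in animal 2 and 0.225% in animal 1, but 11.4% and 13.1% in the second transcript table. For Casq1, the transcript of 405 codons held 83.5% in animal 2 and 83.4% in animal 1, and a retained-intron model held the remaining 16.5% in animal 2 and 16.6% in animal 1. The second table gave that model 8.37% in animal 2 and 6.89% in animal 1. Of expected counts in the first table, it held 9.16% in animal 2 and 9.23% in animal 1. Its part of estimated counts in the second was 3.78% in animal 2 and 3.10% in animal 1. For Casq2, the transcript of 415 codons held 92.5% in animal 2 and all of the TPM in animal 1, with 64.3% in animal 2 and 88.1% in animal 1 in the second table. Of estimated counts in the second table, that transcript held 93.85% in animal 2 and 98.4% in animal 1. For Hrc, the transcript of 738 codons held 97.7% in animal 2 and 98.5% in animal 1.

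**Figure D3:**
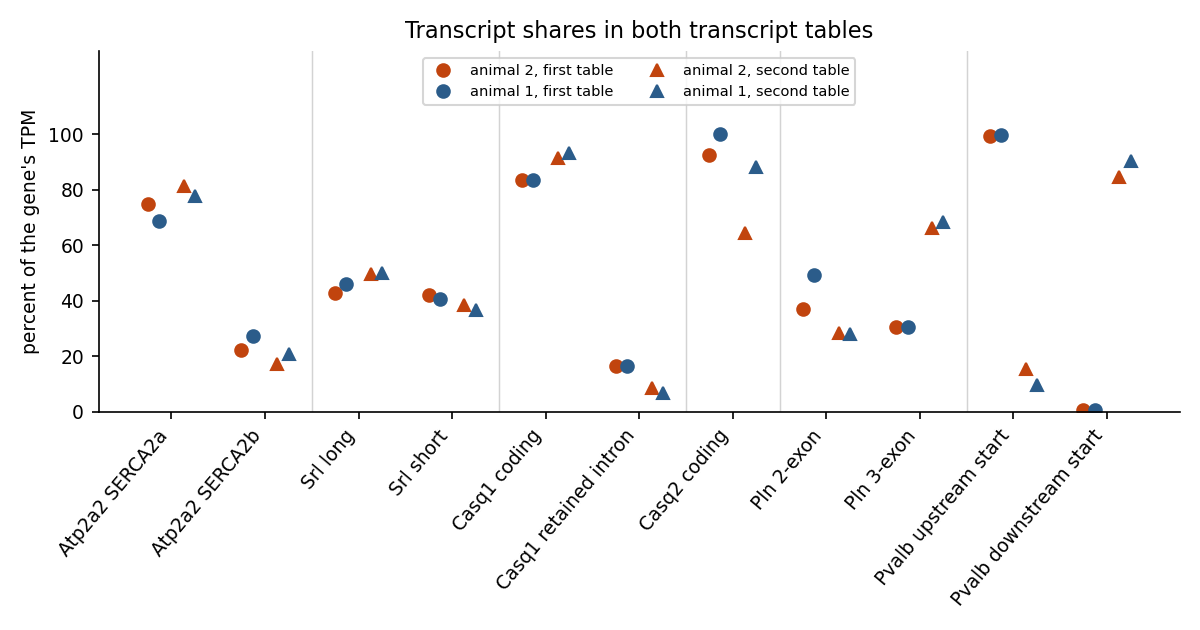
Percent of each gene's TPM (y axis) held by named transcripts (x axis), with circles for the first and triangles for the second transcript table, orange for animal 2 and blue for animal 1. The points of SERCA2a lie between 68.8% and 81.1% and those of the long Srl transcript between 42.9% and 49.99%, whereas the tables put Pvalb on opposite transcripts.

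Pvalb (chromosome 15, 78191114 to 78206400, minus strand), parvalbumin, had 3281 TPM in animal 2 against 4034 TPM in animal 1. It stood at 0.425 of the TPM of Atp2a1 in animal 2 and 0.461 in animal 1. Its 2 annotated transcripts carry the same coding sequence of 110 codons and begin at separate start sites, the upstream one at 78206400 and the downstream one at 78204237. The transcript tables disagreed on which start led. The first gave the upstream transcript 99.4% of the gene's TPM in animal 2 and 99.6% in animal 1, while the second gave the downstream transcript 84.6% in animal 2 and 90.3% in animal 1. Within each table the animals had the same leading transcript, and these files do not settle the start site of Pvalb in this muscle.

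The windows around the 2 start sites, from 250 bases before to 50 bases from each start, are shown because the tables part there (RefSeq, GRCm38.p6, minus strand, written in the direction of transcription). Capitals mark matches to CANNTG, the letters of an E-box, searched on both strands. Of 32851 promoter windows of this length, 72.3% held at least 1 match, so a match or its lack is a description only.
Upstream Pvalb window, chr15:78206351-78206650: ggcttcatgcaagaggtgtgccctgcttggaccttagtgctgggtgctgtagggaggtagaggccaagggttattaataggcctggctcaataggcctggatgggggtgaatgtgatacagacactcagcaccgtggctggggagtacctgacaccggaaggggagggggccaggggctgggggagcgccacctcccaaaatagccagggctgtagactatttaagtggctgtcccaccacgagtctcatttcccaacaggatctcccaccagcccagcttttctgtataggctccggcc
Downstream Pvalb window, chr15:78204188-78204487: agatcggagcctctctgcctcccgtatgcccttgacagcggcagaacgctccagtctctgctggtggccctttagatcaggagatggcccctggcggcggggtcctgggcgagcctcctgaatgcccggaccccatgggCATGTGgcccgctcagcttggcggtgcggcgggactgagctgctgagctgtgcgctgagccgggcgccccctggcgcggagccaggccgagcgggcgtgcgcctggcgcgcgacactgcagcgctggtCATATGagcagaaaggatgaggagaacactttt
The upstream window held 0 matches and the downstream window held 2.

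How far the animals stood apart was then measured for each gene as a log2 ratio of expected counts, animal 2 over animal 1, scaled with TMM. Its exact binomial 95% interval covers counting error only and no variation between mice. Of the 9 genes averaging at least 100 counts, 3 were at least 2-fold higher in animal 2 and 0 were at least 2-fold higher in animal 1. Over all 10872 genes with such a count, 0.773% were that much higher in animal 2 and 2.25% in animal 1, or 3.03% in either direction. The median log2 ratio was -0.0040 over the 9 genes and 0.0060 over all genes tested. Scaling by spike-ins moved the median over all genes to 0.22 and the split of genes past 2-fold to 137 higher in animal 2 and 174 higher in animal 1, in place of 84 and 245.

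The 3 genes past 2-fold were the members tied to slow fibres. Atp2a2 was 5.40-fold higher in animal 2, a log2 ratio of 2.43 with an interval of 2.40 to 2.46. Pln was 2.09-fold higher, with a log2 ratio of 1.06 and an interval of 0.83 to 1.30. Casq2 was 2.03-fold higher, with a log2 ratio of 1.02 and an interval of 0.94 to 1.11. The intervals of Pln and Casq2 both include 2-fold itself. With scaling by library size alone their log2 ratios were 0.97 and 0.93, which left Atp2a2 alone past the line. By TPM in the second transcript table, set to the same median over genes, the log2 ratio of Atp2a2 was 2.025 and that of Casq2 1.399. Both lay outside their counting intervals, so these sizes depend on the quantification. Pln, at 1.079 there, stayed inside its interval.

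The fast-fibre members and the other store proteins stood close to equal. Casq1 had a log2 ratio of -0.0040, Atp2a1 of -0.08, Srl of -0.14 and Pvalb of -0.20, and all 4 of these became positive with spike-in scaling, at 0.21, 0.13, 0.08 and 0.01. Hrc was 1.21-fold higher in animal 2, a log2 ratio of 0.27, and kept that sign under all 4 scalings. Sln had a log2 ratio of 0.17 with an interval of -1.37 to 1.75, so no difference was detectable at this depth. Atp2a3 went the other way from Atp2a2, with a log2 ratio of -0.75 and an interval of -0.94 to -0.57.

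**Figure D4:**
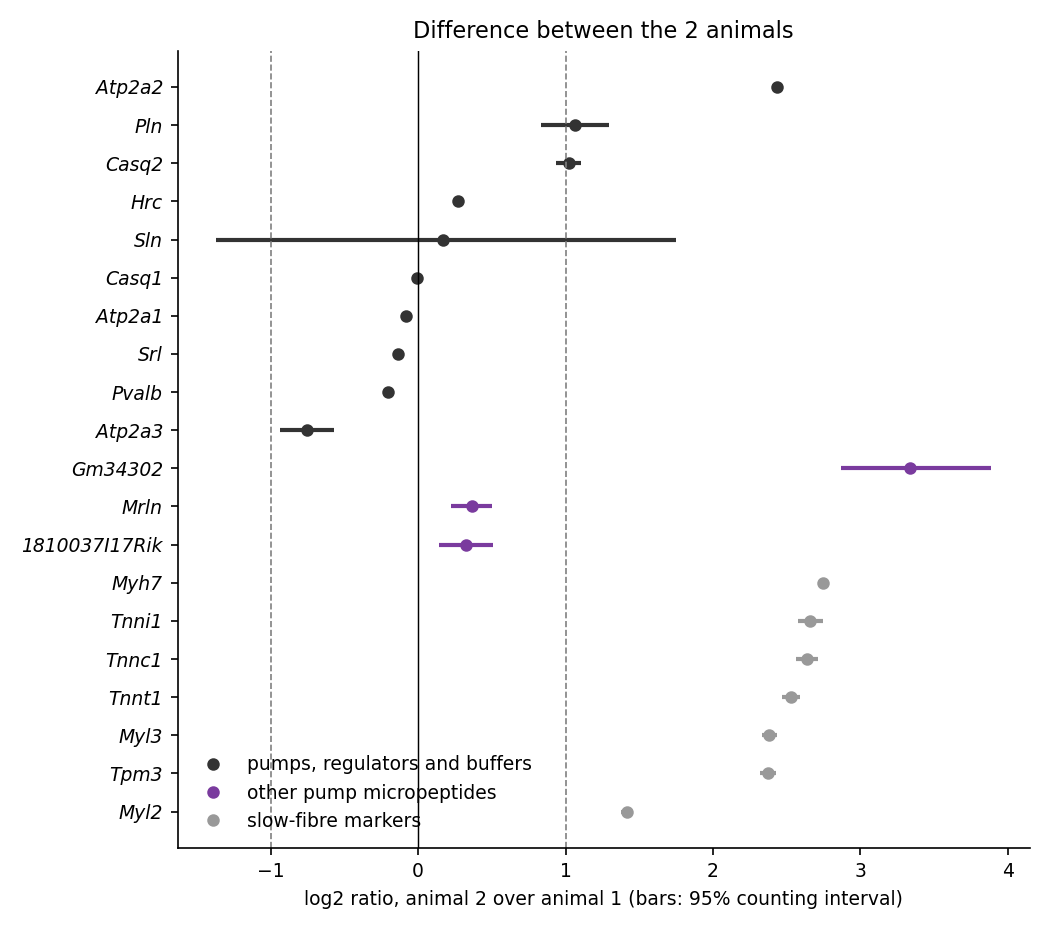
Log2 ratio of expected counts, animal 2 over animal 1 (x axis), for the 10 genes, for 3 other pump micropeptides and for 7 slow-fibre markers, each with its 95% counting interval; dashed lines mark 2-fold. Atp2a2 at 2.43 lies among the slow-fibre markers, Pln and Casq2 lie on the 2-fold line, and Gm34302 at 3.34 lies furthest right.

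The slow-fibre markers moved with Atp2a2, Casq2 and Pln. All 7 were higher in animal 2 by 2-fold or more, with log2 ratios of 1.42 to 2.74 and a median of 2.53, while the 9 fast markers had a median of 0.03 and none past 2-fold. Their part in the results was not tested. Measured against the summed TPM of the slow markers in its own library, Atp2a2 stood at 9.50% in animal 2 and 7.81% in animal 1. Myl2 was the largest part of this sum in both libraries and had the lowest log2 ratio of the 7 markers, 1.42. The log2 ratio of Atp2a2, 2.43, lay above that of Myl2 but below the marker median of 2.53. Which animal had the higher share of Atp2a2 can therefore depend on Myl2, and a sum without Myl2 was not tested. Against the sum of all 7 markers, Casq2 stood at 1.05% in animal 2 and 2.19% in animal 1. Pln stood at 0.255% in animal 2 and 0.507% in animal 1, so relative to that sum both genes were lower in animal 2. Gm34302 stood at 1.80% in animal 2 and 0.793% in animal 1.

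Heart and smooth muscle also express members of this group, and their markers were measured in the same libraries. Of 6 heart markers, Nppb and Myl7 had 0 reads in both animals, Nppa had 1 read in animal 2 and 0 in animal 1, Tnni3 had 0 reads in animal 2 and 2 in animal 1, and Ryr2 was at 0.07 TPM in animal 2 against 0.14 TPM in animal 1. Myh6, at 125 TPM in animal 2 against 18.01 TPM in animal 1, was the exception. The posterior SD of its count was 39.3 reads of 6831 in animal 2 and 15.6 reads of 1058 in animal 1, and its relation to its slow-fibre neighbour Myh7 was not tested. Pln is also known to be expressed in smooth muscle, whose part in its level was not tested. Of the 6 smooth muscle markers, 4 were higher in animal 1 by 2-fold or more. Among these, Acta2 had 22.1 TPM in animal 2 against 57.98 TPM in animal 1. Of the 2 markers not past 2-fold, Des, which muscle fibres express, had 730 TPM in animal 2 against 840 TPM in animal 1. The other, Smtn, had 42.8 TPM in animal 2 against 40.4 TPM in animal 1.

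For Atp2a3, several lists were higher in the same animal. Leucocyte and macrophage markers summed to 23.2 TPM in animal 2 against 36.9 TPM in animal 1, with 3 of 5 at 1 TPM or more in both, and endothelial markers to 48.9 TPM in animal 2 against 61.4 TPM in animal 1, with 5 of 5. Platelet markers summed to 5.47 TPM in animal 2 against 7.56 TPM in animal 1, with Gp1bb and Gp9 at 0 in both. Most of that sum was Pf4, at 4.45 TPM in animal 2 against 6.59 TPM in animal 1. Itga2b went the other way, at 0.97 TPM in animal 2 against 0.86 TPM in animal 1. Lymphocyte markers summed to 0.09 TPM in animal 2 against 0.10 TPM in animal 1, which is near 0. The adipocyte and Schwann lists given above also stood higher in animal 1, by larger factors. Their part in the level of Atp2a3 was not tested.

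The genes closest in pattern were found as the 2 protein-coding genes nearest in log2(TPM + 0.1) over the 2 libraries. For Atp2a2 they were slow-fibre thin filament genes: Tpm3, with 394 TPM in animal 2 against 74.4 TPM in animal 1, at a distance of 0.240, and Tnnc1, with 425 TPM in animal 2 against 72.8 TPM in animal 1, at 0.321. For Atp2a1 they were the glycolytic enzyme gene Aldoa (8066 TPM in animal 2 against 8722 TPM in animal 1, distance 0.0641) and mt-Nd1. Casq1 lay nearest to Mybpc2 and Pgam2, Casq2 to Mical2 and Ky, Pvalb to Gapdh and Tpm2, and Hrc to Tuba4a and Cox7c. The gene nearest to Srl was Rpl41. Pln lay nearest to Cish and Mettl11b, and Atp2a3 to Iah1 and Lyz1. With 2 libraries many genes share a level and a ratio, so nearness is a description of these values.

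Other genes of calcium handling were taken from 8 lists with 65 entries, all of which matched a gene, and 54 averaged at least 100 counts. Of these, 1 was at least 2-fold higher in animal 2, Gm34302, and 1 in animal 1, S100b. That is 3.70% of the 54, near the 3.03% of all genes. Gm34302 was 10.1-fold higher in animal 2, a log2 ratio of 3.34 with an interval of 2.87 to 3.89, on a message annotated at 243 nt to which the second transcript table gave 0 TPM. The calcium-binding protein gene S100b, known from glia, had 0.45 TPM in animal 2 against 4.07 TPM in animal 1, a log2 ratio of -3.05, and moved with the Schwann cell markers, of which 5 of 5 were at least 2-fold higher in animal 1. The adipocyte markers moved the same way, with 6 of 6 at least 2-fold higher in animal 1. The relation of S100b to either list was not tested.

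The other lists had no gene past 2-fold apart from S100b. The release channel and its triad partners had a median log2 ratio of 0.01 over 9 genes tested, with the release channel gene Ryr1 at 538 TPM in animal 2 against 575 TPM in animal 1 and triadin, Trdn, at 441 TPM in animal 2 against 450 TPM in animal 1. Modulators of the pump and of phospholamban had a median of 0.11 over 8 genes, led by Tmem38a, a potassium channel of the store membrane, at 425 TPM in animal 2 against 399 TPM in animal 1, and by the phosphatase subunit gene Ppp1ca, at 71.9 TPM in animal 2 against 77.1 TPM in animal 1. Calcium-binding chaperones of the endoplasmic reticulum had a median of -0.01 over 10 genes, with Hspa5 at 87.8 TPM in animal 2 against 81.3 TPM in animal 1 and Calr, calreticulin, at 73.4 TPM in animal 2 against 80.7 TPM in animal 1.

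Mitochondrial uptake genes had a median of 0.11 over 8 genes, led by Smdt1, a subunit of the uniporter, at 50.6 TPM in animal 2 against 50.1 TPM in animal 1, and Letm1 at 34.2 TPM in each. Export through the plasma membrane and the Golgi pump had a median of -0.09 over 6 genes, led by the plasma membrane pump Atp2b1 at 28.3 TPM in animal 2 against 28.5 TPM in animal 1 and the Golgi pump Atp2c1 at 14.1 TPM in animal 2 against 15.4 TPM in animal 1. Store-operated entry genes had a median of 0.05 over 5 genes, with the store sensor Stim1 at 70.4 TPM in animal 2 against 67.2 TPM in animal 1 and Saraf at 55.8 TPM in animal 2 against 55.7 TPM in animal 1. Cytosolic EF-hand buffers had a median of -0.32 over 5 genes, led by S100a1 at 72.3 TPM in animal 2 against 75.3 TPM in animal 1 and Cib2 at 34.2 TPM in animal 2 against 37.3 TPM in animal 1. Oncomodulin, Ocm, and calretinin, Calb2, had 0 reads in both animals, and calbindin, Calb1, had 3 reads in each. All of these stood far below Pvalb.

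**Figure D5:**
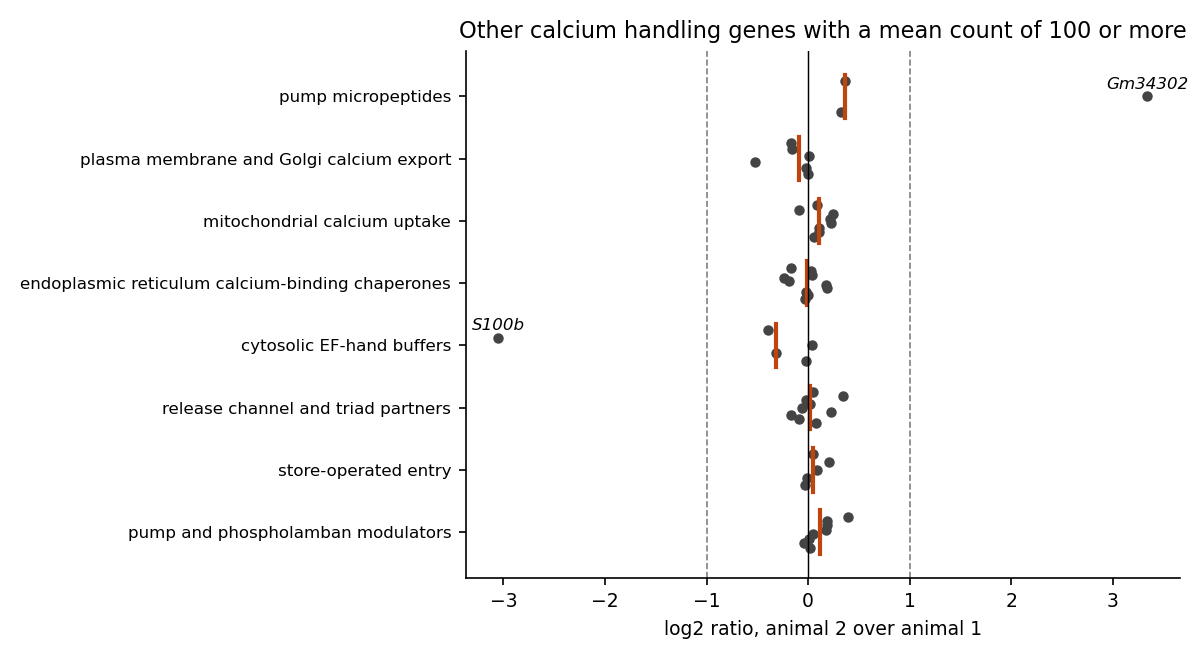
Log2 ratio, animal 2 over animal 1 (x axis), of the genes averaging at least 100 counts in each of 8 lists (y axis), with an orange bar at each list's median and dashed lines at 2-fold. All points but Gm34302 at 3.34 and S100b at -3.05 lie within 2-fold.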

How the data were processed

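Total RNA of 300 ng with ERCC spike-ins gave each library, per the labels. Expected counts and TPM per gene and transcript, the percent of its gene's TPM held by each transcript and a posterior SD of counts were deposited by the authors in the layout that RSEM writes; estimated counts and TPM in a second transcript table were deposited in the layout that kallisto writes. Lists deposited with the tables give mm10 and GENCODE M21 as build and annotation; the second table started from reads, the others from alignments to transcripts. The quantification tools, not given in the sources used here, could not be checked. Reads of CAST alleles, counted on a B6 genome, can be lost.

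Transcript shares were computed from TPM. Expected counts were rounded for TMM factors (edgeR 4.0.16, 14910 genes passing its filter). Log2 ratios used a prior count of 0.5. Ratios between genes used TPM with a pseudocount of 0.1. The 26248 rows without a gene name (5 reads or 1.04e-05% of counts in animal 2, 3 reads or 6.63e-06% in animal 1) and spike-ins were left out of library sizes. Intervals are exact at 95%. All 10 genes are described. The second gene closest to Srl is not reported here. Of each list the 2 genes of highest mean TPM and those past 2-fold are named, and others beside them were named after their values were seen. The 10 genes, lists and markers were chosen with earlier results of these data known. The calculation of the ratios was checked on simulated counts with an assumed spread, which says nothing of the spread between mice. Alternatives were DESeq2 1.42.0 size factors, library size, spike-ins, a prior count of 5, count filters, expected counts and the second table. Scripts ran in R 4.3.3 and in Python 3.11.15 with pandas 2.3.3, numpy 2.4.6, matplotlib 3.10.9 and scipy 1.17.1.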

Additional observations from a re-analysis of the deposited data

How the results depend on the processing

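With scaling by library size alone, 1 of the 9 genes tested, Atp2a2, was at least 2-fold higher in animal 2 in place of 3. The other scalings, a prior count of 5, both other count filters and the second transcript table gave 3, and all gave 0 in the opposite direction. In the second table the mean share of SERCA2a in Atp2a2 was 79.4% in place of 71.8%, and that of the upstream Pvalb transcript was 12.6% in place of 99.5%; the cause was not tested. Of 50 log2 ratios of the 10 genes under 5 alternatives, 4 changed sign, all with spike-in scaling (Atp2a1, Casq1, Srl and Pvalb). Leaving out either library leaves the value of the other, and no paired fit exists: No paired analysis was possible because there is 1 group. Depth limits Sln, with 9 and 8 reads, and the transcript shares of Pln and Atp2a3. With 2 libraries, a difference between them has no replicate check.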

Other observations

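Within the Atp2a2 gene the annotation holds 2 unclassified genes on the same strand, whose reads cannot be separated from unspliced Atp2a2 by these files. Gm43359 had 196 reads in animal 2 and 35 in animal 1, and Gm43360 had 101 reads in animal 2 and 28 in animal 1. Both stood higher in animal 2, like Atp2a2. Within Casq2, the intronic 4632404M16Rik of the same strand drew 41 reads in animal 2 against 18 in animal 1.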
